A study of Homo sapiens with 14 samples.

Results

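Clones a and c of HEK293 cells carrying HA-tagged HOXD9 were set beside the HOXD9 mixed population and clone b. HEK293 is a human embryonic kidney cell line. The 4 HOXD9 lines were made by transfection with an HA-tag HOXD9 vector and selection with G418, a drug that kills cells lacking the plasmid's resistance gene. The mix is the selected population, and clones a, b and c were each picked from it, so every clone is 1 clone and none is independent of the mix. The 3 HA vector cultures carry the tag vector alone and give the reference level. The descriptions of all vector cultures name G418 selection too, although the titles of the first HA and all V5 vector cultures do not. All these cells were grown in RPMI 1640 with serum. The study also holds 4 lines with V5-tag HOXD13 (a mix and clones a, b and c) and 3 V5 vector cultures, with 1 Affymetrix expression array of total RNA for each of the 14 cultures. The promoter that drives either HOX gene is not given in the sources used here. The labels call the vector cultures biological replicates but do not say how they were separated, so part of the spread between them, which p-values rest on, may be technical.

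The 4 HOXD9 arrays, out of 14, were divided by the number of genes that lie more than 1 log2 unit (a 2-fold difference in array signal) from the mean of the 3 HA vector arrays. That number was 1386 genes in clone c and 604 in clone a, the smallest on the side of the far clones. It was 15 in clone b, the largest on the near side, and 3 in the mix. Because these values chose the sides, the comparison of clones a and c with mix and clone b is a description, and no test of it is given. Of the genes in clone a that were that far from the vector, 593 were lower and 11 higher. In clone c, 1179 were lower and 207 higher. In the mix and in clone b every gene that far from the vector was higher.

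HOXD9 belongs to the HOX family, homeodomain transcription factors that bind AT-rich DNA and pattern the body axis, the limbs and the urogenital tract. Genes of the D cluster lie side by side on a chromosome and are switched on in that order during development. Posterior members include HOXD9 and HOXD13. Many HOX proteins act with PBX or MEIS cofactors, which sharpen their choice of DNA site.

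HOXD9 itself did not divide the lines in this way. Its responsive probe set, a group of array probes read as 1 value, gave log2 values of 2.52, 2.83 and 2.82 on the HA vector arrays. It read 6.84 in the mix, 6.65 in clone b, 6.70 in clone a and 7.76 in clone c. All 4 lines were thus far above the vectors, clone c was the highest, and clone a lay between clone b and the mix. The second HOXD9 probe set lay at 4.20 to 4.24 on the vectors and at 4.33 to 4.54 in the lines, highest in clone a and near background throughout.

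Over the 9785 genes measured on the HA-tag arrays, the 3 vector arrays differed from each other by a median absolute difference of 0.053 to 0.063 log2 units. Clone b lay 0.12 to 0.13 from the vectors, the mix 0.16 to 0.18, clone a 0.35 and clone c 0.54. The mix and clone b were the closest pair of HOXD9 lines, 0.11 apart, whereas clones a and c were 0.33 apart from each other. Clone a was nearer to the mix, at 0.25, than to clone c. The far clones therefore did not share 1 profile: clone a exceeded clone c by more than 1 log2 unit in 449 genes, and clone c exceeded clone a in 310.

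A gene was called apart when both far clones lay beyond both near lines and the means of the 2 sides differed by at least 1 log2 unit. By this rule 435 genes were lower in clones a and c (4.45% of the genes measured) and 2 were higher (0.0204%), together 4.47%. The difference of all genes had a median of 0.11, with quartiles of -0.28 and 0.32, and ran from -2.09 to 1.30. Without the size limit, 3714 genes (38%) lay higher in both far clones and 2160 (22.1%) lower, so small differences were more often upward and large ones nearly always downward. The HA-tag arrays had been given 1 distribution of values, so each difference is relative to the other genes of the arrays. The part of this normalization in the small upward differences was not tested. At the limit, MIGA1 with a difference of -1.002 was the last gene inside, and MDFIC at -0.999 the first outside.

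**Figure D1:**
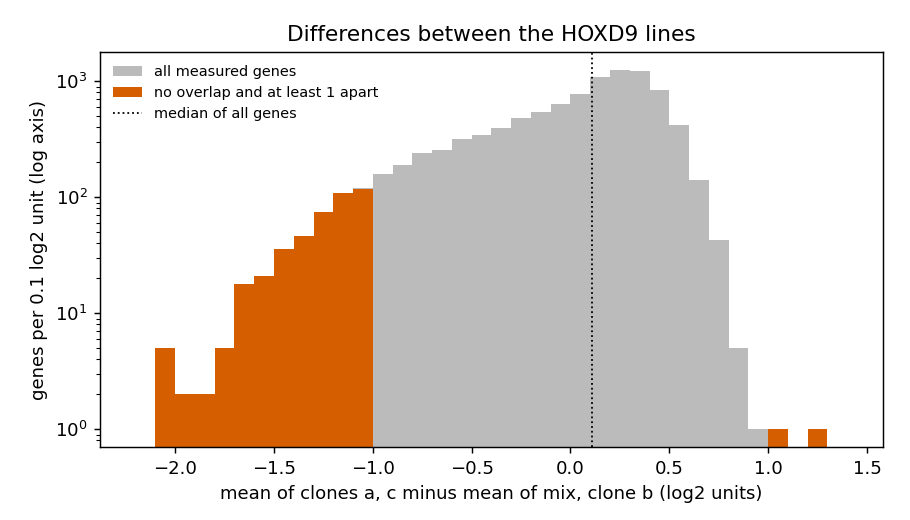
Differences between the means of clones a, c and of mix, clone b for 9785 genes, in log2 units, with the number of genes per 0.1 unit on a log axis; genes that do not overlap between the sides and differ by at least 1 are coloured. The tail to the left holds 435 coloured genes and the right only 2, while the dotted median lies at 0.11.

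The 435 lower genes stood at a median log2 level of 8.05 in mix and clone b, close to the 8.11 of all genes, and at 6.80 in the far clones. Measured from the vector mean, their median shift was -1.27 in clone a, -1.41 in clone c, -0.25 in the mix and 0.02 in clone b. In 430 of them both far clones also lay below all 3 vector arrays. Clone c was the lower of the far clones in 250 and clone a in 185. The mix was below clone b in 405, so the near lines had an order of their own. The mix lay below all 3 vectors in 341 of these genes, and clone b in 161.

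Of the lower genes, 105 had a gap of at least 1 log2 unit between the sides, and the 10 of largest negative difference among them follow. SNX13, a sorting nexin of endosomal membranes, read 6.49, 6.53 and 6.56 on the vectors, 6.55 in the mix and 6.90 in clone b, against 4.62 in clone a and 4.65 in clone c. That is a difference of -2.09, or 4.25-fold lower signal, with the far clones nearly equal. A second SNX13 probe set did not share this and differed by 0.09, so the value rests on 1 probe set.

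PRELID3B read 9.22, 9.36 and 9.21 on the vectors, 9.04 in the mix and 9.19 in clone b, against 6.16 in clone a and 7.94 in clone c. Its difference was -2.07, and its other probe sets gave -0.72 and -0.56. In both of these clone c was the lower, at 5.22 and 7.26 against 6.32 and 7.71 in clone a. ZBTB41, a zinc finger protein, read 6.08, 6.19 and 6.11 on the vectors, 6.33 in the mix, 6.89 in clone b, 4.74 in clone a and 4.38 in clone c. In ZBTB41 part of its difference of -2.05 came from clone b and, less so, the mix, which both stood above all 3 vectors.

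TMEM170B, a membrane protein, read 7.15, 7.05 and 6.95 on the vectors, 6.29 in the mix, 6.76 in clone b, 3.94 in clone a and 5.01 in clone c. Here all 4 HOXD9 lines lay below the vectors, the far clones by much more. SLC2A13, which carries myo-inositol into the cell with protons, read 6.46, 6.17 and 6.18 on the vectors, 5.91 in the mix, 6.47 in clone b, 4.11 in clone a and 4.25 in clone c. The difference was -2.05 for TMEM170B and -2.02 for SLC2A13.

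In the brightest probe sets of the rest of these 10, clone a was below clone c. SIKE1, an inhibitor of the kinase IKK-epsilon in antiviral signalling, read 6.32 in clone a, 7.52 in clone c and 8.71 and 8.94 in mix and clone b, around vector values of 8.88 to 9.04. Its second probe set differed by only -0.14. SKIC3, a subunit of the SKI complex that feeds RNA into the exosome, read 6.25 and 7.53 in clones a and c against 8.69 and 8.89, and its other probe sets gave -0.74 and -0.50. STXBP3, which binds syntaxins in vesicle fusion, read 6.18 and 7.50 against 8.52 and 8.82. TMTC3, an O-mannosyltransferase of the endoplasmic reticulum, read 5.80 and 6.92 against 8.03 and 8.29, and its other probe sets gave -1.60 and -0.90. ETNK1, an ethanolamine kinase in phosphatidylethanolamine synthesis, read 6.88 and 7.73 against 8.86 and 9.34, and its other probe sets gave -0.77 and -0.45. The order of the far clones rested on the probe set: in the second sets of SKIC3 (7.28 and 6.44 in a and c) and ETNK1 (6.26 and 4.87) clone c was the lower, as it was in that of TMTC3. In both other ETNK1 sets, the TMTC3 set at -0.90 and the SKIC3 set at -0.50, clone a lay above the mix. Only clone c was below both near lines in these sets. In the ETNK1 set at -0.45, clone a at 6.64 also exceeded clone b at 6.50. Averaged over its probe sets the difference was -1.11 for PRELID3B, -1.05 for SKIC3, -1.03 for SIKE1 and -1.01 for ETNK1, and SNX13 just reached the limit.

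The 2 higher genes were H1-2 and SDF2L1. H1-2 encodes a linker histone and read 6.70, 6.71 and 6.77 on the vectors, 6.07 in the mix, 6.09 in clone b, 7.13 in clone a and 7.62 in clone c. The far clones lay above the vectors and the near lines below them, so the difference of 1.30 was made up from both sides. SDF2L1, a chaperone cofactor of the endoplasmic reticulum that was named after its values were seen, read 6.20, 6.53 and 6.24 on the vectors, 6.99 in the mix and 6.42 in clone b, against 7.39 in clone a and 8.20 in clone c. Its gap between the sides was 0.39, and the mix too lay above the vectors.

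**Figure D2:**
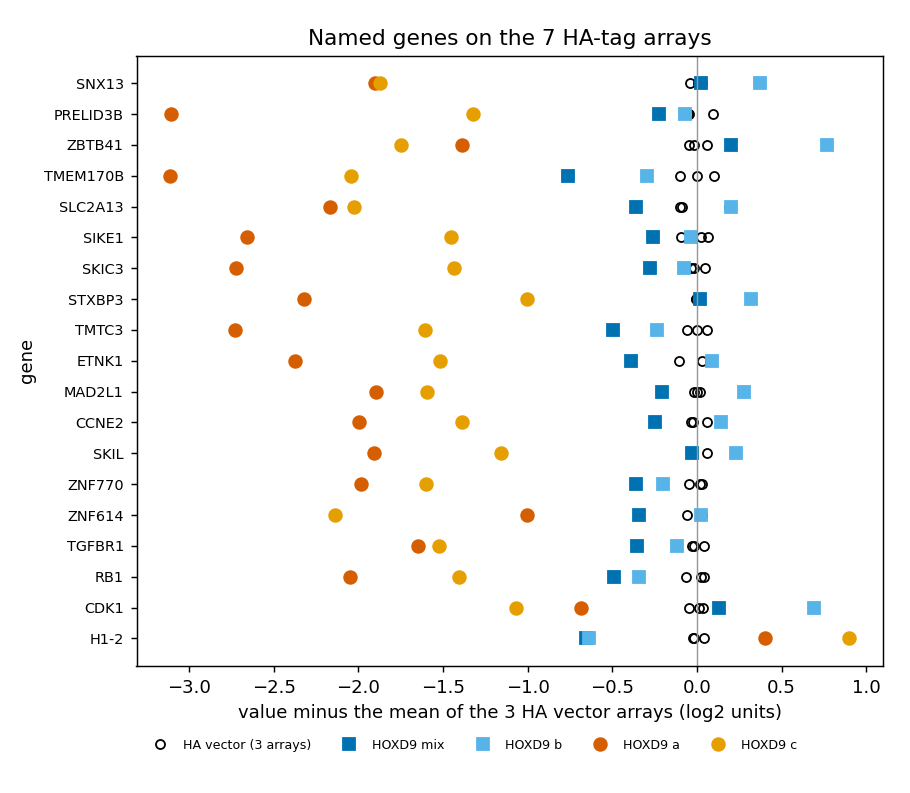
Log2 values of the named genes, by their brightest probe set, minus the mean of the 3 HA vector arrays, 1 point per array; open circles are vectors, squares mix and clone b, filled circles clones a and c. In the 18 lower genes both far clones lie left of all 3 vectors, and in 15 of the 18 clone a lies left of clone c.

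Genes were also read in 44 lists of pathways, complexes and cell type markers. Of 34 measured genes of G2 and mitosis, 5 were lower (14.7%, against 4.45% of all genes), with a median difference of -0.13. MAD2L1, the spindle checkpoint protein that holds back anaphase, read 11.68, 11.70 and 11.72 on the vectors, 11.49 in the mix, 11.98 in clone b, 9.80 in clone a and 10.10 in clone c. Its difference was -1.78, and its other probe sets gave -1.43 and -0.99. In the set at -0.99 clone a, at 10.11, lay just above the mix at 10.06, and only clone c was below both near lines. CDK1, the kinase that drives entry into mitosis, read 9.96 in clone a and 9.57 in clone c against 10.77 in the mix and 11.33 in clone b, around vector values of 10.59 to 10.68. The mix and clone b lay above the vectors in CDK1. In its other probe sets, at -0.69 and -0.68, clone a lay between the mix and clone b, and the average over its probe sets, -0.88, no longer met the limit.

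The mitotic list did not move as 1 block. ECT2, NUF2 and HMMR, which serve cytokinesis, kinetochores and spindles, differed by -1.12, -1.11 and -1.03. CDC20, AURKB and CDC25C, regulators of the same phase, differed by 0.36, 0.26 and 0.58. CCNB1, the main partner of CDK1, differed by 0.19. These members were named after their values were seen, to show the span of the list. None of the 40 measured S phase and replication genes was apart, and their median was 0.08.

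Among cyclins, cyclin-dependent kinases and their inhibitors, 3 of 24 measured genes were lower (12.5%) and the median was 0.03. CCNE2, a cyclin of the G1 to S transition, read 6.84 in clone a and 7.46 in clone c against 8.60 in the mix and 8.98 in clone b, with vectors at 8.81 to 8.90. RB1, the retinoblastoma protein that restrains that transition, read 7.52 and 8.17 against 9.08 and 9.23, with vectors at 9.51 to 9.61. The third was RBL1, a relative of RB1, with a difference of -1.14. CCNE1, the other cyclin E gene, differed by 0.31, and both were named after their values were seen. The median of this list changed sign, to -0.05, with a minimum of 7, and was also below 0 without clone a or clone b.

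TGF-beta and BMP ligands act through paired type I and type II receptors, which phosphorylate SMAD proteins that then enter the nucleus. Of 26 measured genes of this pathway 4 were lower (15.4%), with a median of -0.17. TGFBR1, the type I receptor for TGF-beta, read 10.00, 10.06 and 9.99 on the vectors, 9.66 in the mix, 9.90 in clone b, 8.37 in clone a and 8.49 in clone c, a difference of -1.35. Its partner TGFBR2 differed by -0.05. BMPR2, a type II receptor for BMPs, was lower by the rule at -1.07, and ACVR2A and BMPR1B stood at -0.91 and -0.89.

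Among the SMADs, the BMP-responsive SMAD9, SMAD5 and SMAD1 differed by -1.02, -0.83 and -0.51, of which only SMAD9 met the limit. The TGF-beta-responsive SMAD2 and SMAD3 differed by 0.14 and 0.38. SKIL, a corepressor that binds SMADs, read 6.29 in clone a and 7.04 in clone c against 8.17 in the mix and 8.43 in clone b, with vectors at 8.17 to 8.26. Its second probe set differed by 0.01, so that difference of -1.64 was read by 1 of 2 probe sets, and their average of -0.81 did not meet the limit. The target genes ID1 and ID3 differed by 0.35 and 0.34, and ID2 and ID4 by -0.50 and -0.65. Apart from the genes of the naming rule, these members were also named after their values were seen.

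A list of zinc finger genes, drawn mostly from the KRAB family of repressors of transposable elements, had 15 lower members of 133 measured (11.3%) and a median of -0.22. It also holds TRIM28, the corepressor of that family, and ZNF770, a zinc finger protein without a KRAB domain. ZNF770 read 7.20 in clone a and 7.58 in clone c against 8.83 in the mix and 8.99 in clone b, with vectors at 9.14 to 9.21. ZNF614 read 5.95 and 4.82 against 6.61 and 6.98, with vectors at 6.90 to 6.99, and here clone c was the lower. Measured from the vectors, the median of the whole list was -0.11 in clone a, -0.32 in clone c, 0.06 in clone b and near 0 in the mix. The members share sequence, so probes of 1 gene may read a neighbour.

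Several large classes held few or no lower genes. None of 44 cytosolic ribosomal protein genes, none of 69 mitochondrial ribosomal protein genes, none of 35 proteasome genes and none of 43 genes of the nucleolus and ribosome biogenesis was apart. Their medians were -0.02, 0.19, 0.21 and 0.20. The share of lower genes was 4.45% over all genes, 1.33% in the bin of shortest genes and 2.25% in the brightest bin. At such shares few lower genes fall in a list of this size, so no result is read from these counts. Of 67 nuclear oxidative phosphorylation genes only NDUFA5 was lower, at -1.11 (1.49%). The unfolded protein and ATF4 list had SDF2L1 as its 1 apart gene, and a median of 0.23. Its chaperones of the endoplasmic reticulum were mixed: HSP90B1 and PDIA4 each differed by 0.57, DNAJB9 by -0.64 and DNAJC3 by -0.34, while HSPA5 read 12.38 in clone a, below all vectors, and 13.59 in clone c, above them. The single genes of this paragraph were named after their values were seen.

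Lists with 1 or 2 lower genes included regulators of cell identity, and the genes given here were named after their values were seen. Lower were 2 of 18 measured genes of epithelial junctions and keratins (11.1%) and 1 of 16 mesenchymal genes (6.25%). Of 27 polycomb genes 2 were lower (7.41%), with a list median of 0.10, against 4.45% of all genes. No result for a list is read from so few genes. EPCAM, an epithelial adhesion molecule, read 10.09 in clone a and 10.39 in clone c against 11.21 in the mix and 11.36 in clone b, with a vector mean of 11.21. ZEB2, a repressor of epithelial genes, read 3.18 and 4.79 against 5.62 and 5.41. Thus EPCAM of the epithelial list and ZEB2 of the mesenchymal list were both lower. SUZ12, a core subunit of the polycomb repressive complex that methylates histone H3, read 9.60 in clone a and 8.52 in clone c against 10.00 and 10.38, and was lower mainly in clone c.

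EIF1AX, a factor that helps the ribosome find the start codon, was the 1 lower gene of 40 measured translation factors (2.5%) and read 10.14 and 10.78 in clones a and c against 11.99 and 12.27. XIAP, an inhibitor of caspases, read 8.80 and 9.28 against 10.14 and 10.15, the 1 lower gene of 22 measured apoptosis regulators (4.55%, near the 4.45% of all genes). FGF2, a secreted growth factor, read 4.75 in both far clones against 5.84 in the mix, with a difference of -1.17 between the sides. It was the 1 lower gene of 20 measured growth factors and receptors (5%). RRM2B, the p53-induced subunit of ribonucleotide reductase, read 8.06 and 7.46 against 8.77 and 9.14. RRM2B was the 1 lower gene of 21 measured p53 targets (4.76%), whose median shift from the vectors was 0.03 in the mix and in clone c, 0.04 in clone a and 0.06 in clone b. Their median difference between the sides was -0.14, with 12 of the 21 below 0, and it reached 0.009 with 1 array left out. In EIF1AX and XIAP clone a was the lower of the far clones, and in RRM2B clone c.

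Other measured HOX genes stayed within the limit. The 5 measured genes of the D cluster other than HOXD9 had a median of 0.31, from -0.15 in HOXD10 to 0.66 in HOXD11. The 12 measured genes of the list of A, B and C clusters all belonged to clusters B and C. They had a median of 0.30, which was 0.003 without clone c, and none below 0. That median shift from the vectors was 0.07 in clone a and 0.68 in clone c, so the far clones differed here. The HOX cofactors (PBX, MEIS and relatives) had a median of 0.09 over 10 genes, which was -0.08 without clone c, and none was apart.

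**Figure D3:**
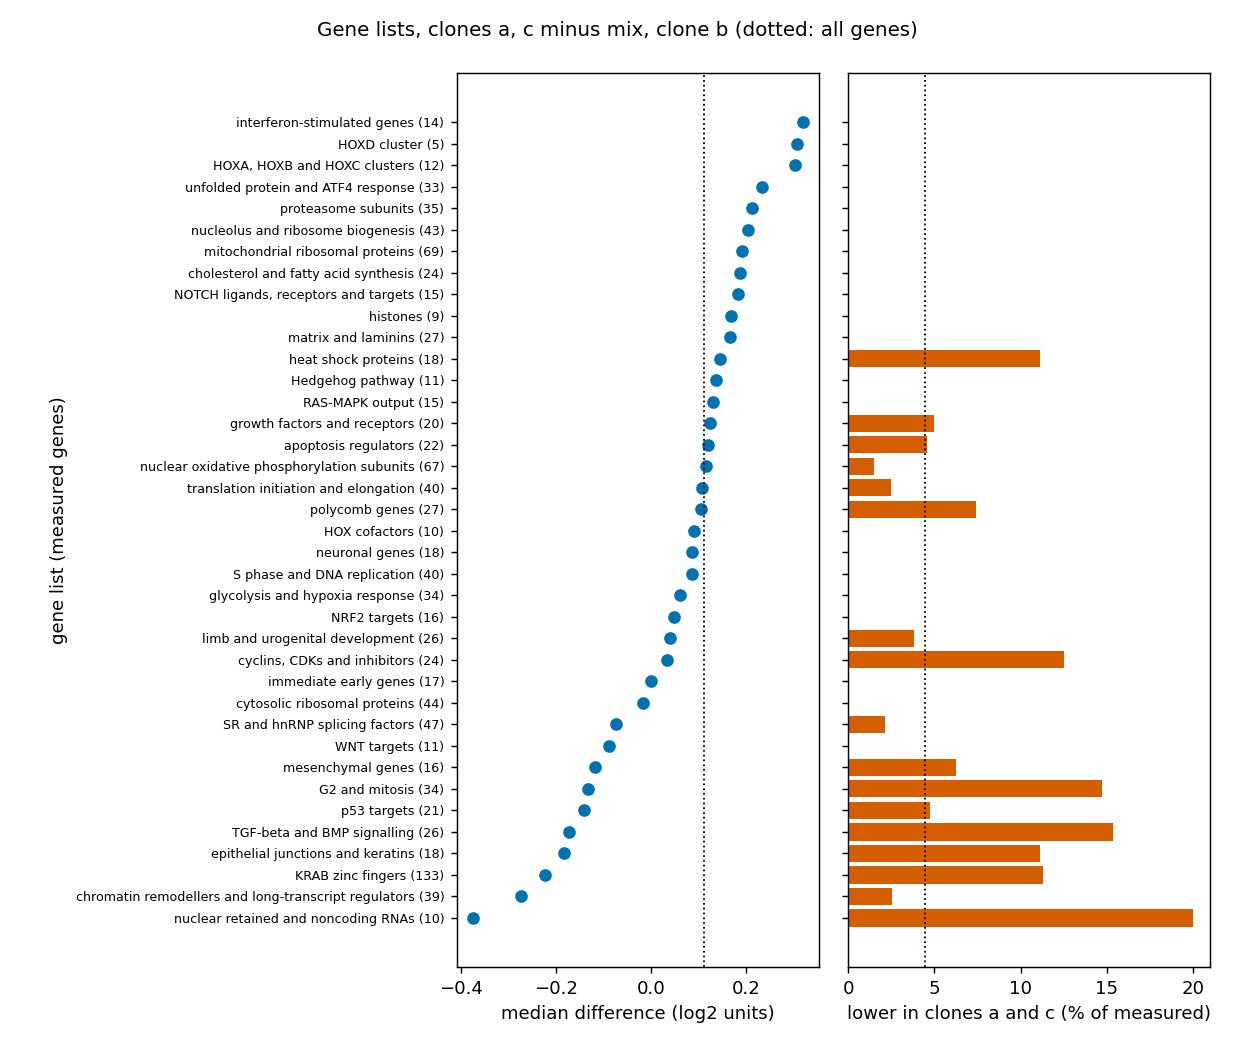
Median difference (clones a, c minus mix, clone b, in log2 units) and percent of measured genes that were lower, for each list with at least 5 measured genes, whose number is in brackets; dotted lines mark all genes, at 0.11 and 4.45%. The TGF-beta and BMP list, the mitotic list and the list labelled KRAB zinc fingers lie right of the line in percent and left of it in median. Several lists of basic cell machinery have no bar, from which no result is read.

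The list of nuclear-retained and other noncoding RNAs lay below the vectors in the median of its 10 measured genes. That median was -0.79 in clone c, -0.51 in clone a, -0.34 in the mix and -0.30 in clone b. Its members ZFAS1 and EPB41L4A-AS1, host genes of small nucleolar RNAs, went otherwise, above the vector mean in the mix and clones a and b and below it in clone c. MALAT1, a long nuclear RNA that was named after its values were seen, had 9 measured probe sets that disagreed with each other. Its brightest read 13.14, 13.19 and 13.08 on the vectors, 12.34 in the mix, 12.45 in clone b, 10.25 in clone a and 11.81 in clone c, a difference of -1.36. Another read 10.70, 10.62 and 10.59 on the vectors, but 8.82 in the mix, 8.37 in clone b, 10.13 in clone a and 9.54 in clone c, a difference of 1.24. Of the 9, 2 were lower and 2 higher by the rule, while 9 lay below all vectors in clone c, 8 in the mix, 8 in clone b and 7 in clone a. No direction between the sides is therefore given for MALAT1.

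Other probe sets of the lower genes mostly pointed the same way with smaller differences. They read genes already chosen as lower on the same arrays, so this is a description and no independent support. Of 315 further measured probe sets, of 202 lower genes, 270 (85.7%) were below 0, and 77 (24.4%) met the rule themselves. Over the 6184 further probe sets of all genes, 41.0% were below 0 and 4.50% met the rule. Both probe sets of lower genes that met it upward belonged to MALAT1.

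Clones a and c were furthest from each other in a small set of genes. HSPA6, a heat-inducible HSP70, read 8.77, 8.84 and 8.77 on the vectors, 9.75 in the mix, 7.94 in clone b, 7.85 in clone a and 11.77 in clone c. Clone a stood with clone b and clone c above everything else, and a second HSPA6 probe set gave the same order of lines. SEC24D, a cargo-binding part of the COPII coat of transport vesicles, read 6.71 to 6.81 on the vectors, 6.68 in the mix, 6.54 in clone b, 4.13 in clone a and 7.43 in clone c.

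UBBP1, a processed copy of the ubiquitin gene UBB whose probes may read its parent, read 9.35 to 9.64 on the vectors, 9.70 in the mix, 9.30 in clone b, 7.14 in clone a and 10.15 in clone c. In the opposite direction C5, a complement protein, read 5.68 to 5.84 on the vectors, 5.47 in the mix, 5.71 in clone b, 5.73 in clone a and 3.55 in clone c. LINC02035, a long noncoding RNA, read 6.73 in clone a and 4.59 in clone c. DDR2, a collagen receptor, read 5.80 in clone a and 3.82 in clone c. In SEC24D and UBBP1 clone a alone was low, and in C5, LINC02035 and DDR2 clone c alone was low.

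The lower genes can also be read in pairs of lines that share no array. Clones a and c were chosen by distance from the vectors, which was mostly downward, so shared decreases were favoured in advance. The pairs are a description and no independent check. Of 9785 genes, clone a minus mix was at or below -1 in 410 and clone c minus clone b in 1066. They had 148 in common (36.1% of the first and 13.9% of the second). Clone a minus clone b gave 551 and clone c minus mix 676, with 225 in common (40.8% and 33.3%). Across genes, which are not independent replicates, Pearson's r was 0.34 for the first pairing and 0.56 for the second. Increases of that size in common numbered 1 in each pairing.

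Of the quality controls of the arrays, some moved with the sides and some did not. The ACTB control sets at the 3′ and 5′ ends of the transcript give a log2 difference that depends on RNA integrity and labelling. It was 2.29, 2.32 and 2.37 on the vectors, 2.26 in the mix, 2.35 in clone b, 1.70 in clone a and 2.10 in clone c, the far clones below all others. The same measure for GAPDH was 0.65 to 0.69 on the vectors, 0.64 in the HOXD9 lines other than clone c, and 0.61 in clone c. The spike-in BioB 3′ set, added at a fixed amount, read 6.81 in clone a and 6.95 in clone c against 6.48 to 6.69 on the other 5 arrays. The spike-in CreX 3′ set did not divide the lines in that way, with clone a the lowest at 13.26, clone c the highest at 13.53 and the other 5 arrays at 13.38 to 13.46. The part of these measures in the difference between the lines was not tested.

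Gene length also went with the shift in every HOXD9 line. The lower genes had a median genomic length of 49.8 kb against 33.0 kb over all genes. With the genes in 5 equal bins of length, 1.33% were lower in the bin of the shortest genes, 6.85% in the bin from 45.6 to 97.7 kb and 4.86% in the bin of the longest. Spearman's rho between length and shift from the vectors, across genes, was -0.25 in clone a and -0.35 in clone c, but also -0.38 in the mix and -0.33 in clone b. On the vector arrays it lay between -0.04 and 0.05. In 5 bins of expression level the share of lower genes was 5.01% in the dimmest and 2.25% in the brightest.

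**Figure D4:**
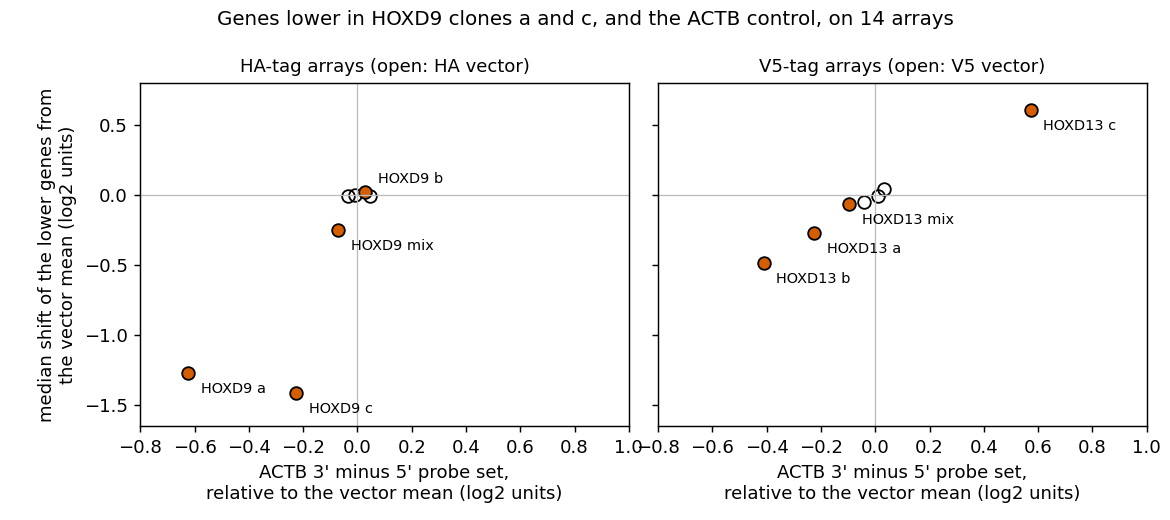
For each array, the median shift of the 435 lower genes from the vector mean (log2 units) against its ACTB 3′ minus 5′ difference relative to the vector mean, for HA-tag arrays on the left and V5-tag arrays on the right; open circles are vectors. Clones a and c of HOXD9 lie at the lower left and clone c of HOXD13 at the upper right, with shifts of -1.27, -1.41 and 0.61.

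The V5-tag arrays played no part in the choice of clones and were normalized apart from the HA-tag arrays. Of the genes tested there between HOXD13 (4 lines) and V5 vector (3 arrays), 1.94% were called higher and 6.6% lower by limma at an adjusted p under 0.05. The HOXD13 clones, too, were picked from their mix. The fit took the 4 lines as independent, which they are not, so its p-values may be too small. All 435 lower genes of HOXD9 were tested, of which 12 were called higher and 1 lower. The 1 was ANXA1, a calcium-dependent membrane-binding protein, which fell by 1.32 on the log2 scale with HOXD13 (SE 0.29, limma adjusted p = 0.037). Among the 12, ZNF883 rose by 1.05 (SE 0.09, limma adjusted p = 0.0089). KLF5, a transcription factor of epithelia, rose by 0.84 (SE 0.16, limma adjusted p = 0.028). DAAM1, an actin assembly factor, rose by 0.72 (SE 0.10, limma adjusted p = 0.013). ANXA1, ZNF883, KLF5 and DAAM1 were named after their values were seen.

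These calls rest on single arrays. Without HOXD13 clone c, 28.2% of genes were called higher and 31% lower, and among the 435 the counts were 36 and 174. Without V5 vector 1, 2 or 3 none of the 435 was called in either direction by limma, and 22, 26 and 23 had an unadjusted p under 0.05. Among all 10277 genes tested, those fits called only 3 higher each and 1, 0 and 0 lower. The absence of calls among the 435 therefore says nothing about these genes. An unadjusted limma p under 0.05 was found for 1781, 1784 and 1730 of all genes. With HOXD13 mix, a or b left out the counts were 4, 2 and 6 higher (0.92%, 0.46% and 1.38%) and 0 lower. Over all genes tested the shares were 0.448%, 0.448% and 0.788% higher and 1.54%, 1.42% and 3.07% lower.

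HOXD13 clone c stood apart from its sister lines in the same genes. The median shift of the 435 from the V5 vectors was 0.61 in HOXD13 clone c, against -0.06 in the HOXD13 mix, -0.27 in its clone a and -0.48 in its clone b. Clone c lay above all 3 sister lines in 406 of the 435 (93.3%), against 39.0% of all genes measured on the HA-tag arrays. It did so in each of the 18 named lower genes. MAD2L1 read 12.09, 11.99 and 11.83 in HOXD13 mix, a and b and 12.71 in clone c, and CDK1 read 11.94, 11.20 and 11.15 against 12.85. H1-2 ran the other way, with 8.30, 8.82 and 9.35 in mix, a and b and 5.83 in clone c. The ACTB 3′ minus 5′ difference was 2.80 in HOXD13 clone c, 2.13 in its mix, 2.01 in clone a and 1.82 in clone b, around vector values of 2.19 to 2.26, and its part in these values was not tested. The 435 genes thus varied among HOXD13 lines too, with a median SD of 0.50 over the 4 lines against 0.25 for all genes.

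The lower genes were spread over the genome without long runs of neighbours. No run of 4 or more adjacent measured genes was lower; 9 runs of 3 and 32 of 2 were found. PIBF1, KLF5 and KLF12 on chromosome 13, RICTOR, TTC33 and PRKAA1 on chromosome 5, and RLIG1, TMTC3 and KITLG on chromosome 12 were among the runs of 3, and were named after their values were seen. By chromosome the share ran from 0 of 222 genes on chromosome 22, 0.711% on 16, 1.09% on 17 and 1.83% on 19 to 7.81% on chromosome 5, 9.52% on 13 and 10.0% on 4. The median difference of all genes was 0.26 on chromosome 22 and -0.19 on both 13 and 4.

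**Figure D5:**
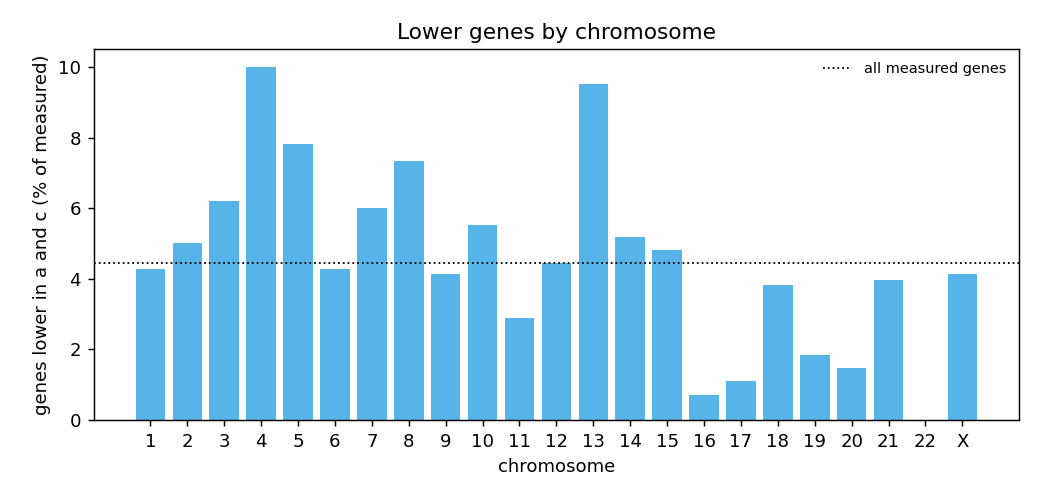
Percent of measured genes that were lower in clones a and c, by chromosome, with a dotted line at the 4.45% of all genes. Chromosomes 4 and 13 reach 10.0% and 9.52%, and chromosome 22 has none.

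Promoters were examined because HOX proteins bind AT-rich sites. Stretches of 250 bases before the RefSeq start were available for 366 lower genes and 8199 measured genes (build GRCh38.p14). They were searched on both strands for TTTAT, a core of posterior HOX sites, for TAAT, a core shared by many homeodomain proteins, and for CCAAT, the box bound by NF-Y, and these motifs can share letters where they abut. TTTAT occurred in 19.1% of the lower genes' promoters, 18.7% of those of measured genes and 33.7% of all 27305 promoters. TAAT occurred in 35.2%, 31.7% and 48.2%, and CCAAT in 33.3%, 36.0% and 33.0%. The median GC content was 64.8% for the lower genes and 65.6% for measured genes. The promoters of 4 lower genes and of the higher H1-2 are shown 5′ to 3′ along the gene's strand, with all matches in capitals, as examples of starts with and without each motif. They lie at chr7:17940495-17940744 (SNX13, minus strand), chr12:40106082-40106331 (SLC2A13, minus strand), chr4:120066849-120067098 (MAD2L1, minus strand), chrX:20141839-20142088 (EIF1AX, minus strand) and chr6:26056471-26056720 (H1-2, minus strand).
SNX13: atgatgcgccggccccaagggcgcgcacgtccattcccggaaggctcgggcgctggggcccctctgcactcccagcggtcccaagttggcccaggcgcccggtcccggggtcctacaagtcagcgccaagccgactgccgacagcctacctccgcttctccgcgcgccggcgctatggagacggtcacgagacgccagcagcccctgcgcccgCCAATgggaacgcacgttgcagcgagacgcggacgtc
SLC2A13: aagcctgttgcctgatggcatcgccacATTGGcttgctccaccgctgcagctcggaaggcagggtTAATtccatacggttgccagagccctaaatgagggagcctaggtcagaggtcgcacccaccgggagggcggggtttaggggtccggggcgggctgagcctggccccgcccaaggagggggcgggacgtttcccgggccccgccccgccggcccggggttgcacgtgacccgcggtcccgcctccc
MAD2L1: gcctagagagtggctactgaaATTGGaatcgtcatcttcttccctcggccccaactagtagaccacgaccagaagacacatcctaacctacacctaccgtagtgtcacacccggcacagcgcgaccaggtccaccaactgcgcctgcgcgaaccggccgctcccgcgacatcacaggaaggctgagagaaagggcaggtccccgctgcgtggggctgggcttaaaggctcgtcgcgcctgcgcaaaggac
EIF1AX: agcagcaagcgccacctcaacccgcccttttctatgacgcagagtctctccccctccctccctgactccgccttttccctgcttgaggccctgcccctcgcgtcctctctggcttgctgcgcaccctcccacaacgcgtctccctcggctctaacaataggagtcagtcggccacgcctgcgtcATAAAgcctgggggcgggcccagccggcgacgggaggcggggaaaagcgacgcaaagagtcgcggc
H1-2: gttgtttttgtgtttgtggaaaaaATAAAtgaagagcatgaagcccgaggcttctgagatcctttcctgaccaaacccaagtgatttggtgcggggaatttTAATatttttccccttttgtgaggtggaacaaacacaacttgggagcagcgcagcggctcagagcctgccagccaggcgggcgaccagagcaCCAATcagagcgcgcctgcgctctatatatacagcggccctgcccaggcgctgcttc
The GC content was 71.6% in SNX13, 70.0% in SLC2A13, 61.2% in MAD2L1, 66.0% in EIF1AX and 52.4% in H1-2. SNX13 and MAD2L1 each held 1 CCAAT match and no TTTAT or TAAT, SLC2A13 held 1 CCAAT and 1 TAAT, EIF1AX held 1 TTTAT, and H1-2 held 1 of each motif. A match is a run of letters and not a binding site.

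The lines were checked against markers of HEK293, which is known for keratins, vimentin and neuronal filaments. KRT18 read 11.01 to 11.04 on the vectors and 11.19 to 11.51 in the 4 lines, VIM 13.64 to 13.90 in the lines, and the neuronal filament gene INA 9.80 to 10.02. PAX2, a kidney developmental gene, lay below the measuring limit of 5, at 3.96 to 4.89 in the lines, and LHX1 and NEFM were at background. Markers of blood, endothelium, muscle and liver were below 5 on every HA-tag array. Of 10 fibroblast genes only COL1A1 was measured, at 7.23 to 7.33 on the vectors, 7.35 in the mix, 7.20 in clone b, 5.30 in clone a and 8.12 in clone c, so the far clones lay on opposite sides of the rest. Of the squamous genes only SFN was measured, at 7.38 to 8.24 in the lines. In a bulk sample fewer cells of a kind and less RNA per cell cannot be told apart.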

How the data were processed

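The deposited values are log2 expression values made with GCRMA, per the submitters' processing notes. GCRMA corrects background by probe sequence, gives arrays 1 distribution and leaves undetected transcripts near a floor of about 2. Its version is not given in the sources used here. Sorted values were identical within the 7 HA-tag arrays to 0.001 and within the 7 V5-tag arrays to 0.002, and the 75th percentile was 6.27 in one set and 7.02 in the other, so levels were compared only within a set. Depth does not apply to arrays, so precision is limited by how many there are.

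Of 54675 probe sets, 41097 had 1 gene symbol in the platform annotation of 2016, 1801 several and 11777 none; 41043 were updated through RefSeq (GRCh38.p14). A gene was read by its probe set of highest mean over 14 arrays, and was measured when that set reached 5 on at least 2 of the 7 HA-tag arrays; a gene whose brightest set fell short, such as HOXD9, was left out and read by probe set. HOXD13 was tested against V5 vector on the 7 V5-tag arrays (10277 genes at 5 on at least 3 arrays) with lmFit and eBayes of limma 3.58.1 (R 4.3.3), two-sided, Benjamini-Hochberg adjusted over all genes tested. The scripts were tested on simulated data. All else was computed in Python 3.11.15 with no test, because the HOXD9 arrays were chosen by their own values; a distance criterion (Dixon's) serves there as a description.

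Named genes were HOXD9, the 10 largest differences in each direction with a gap of at least 1 between the sides, the 2 largest in each list with at least 3 genes apart, and the 3 genes furthest apart between clones a and c in each direction; other genes, apart from the cell type markers, were named after their values were seen. The lines, lists and rules were chosen with earlier results of these data known. Alternatives were other filters, averaged probe sets, centring, other size limits, other fits and leaving out each array.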

Additional observations from a re-analysis of the deposited data

Results flagged for a closer look

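In 3 groups of 4 lines 1 line stood far from the other 3 by Dixon's criterion at 95%, among 37 groups of 4 examined. In groups chosen without regard to their values chance places about 1 in 20 there, but the HOXD9 lines and C5 were chosen by their values, so this is a description and no test. C5, a complement protein named because clone c was far below clone a, read 3.55 in HOXD9 clone c and 5.47 to 5.73 in the other HOXD9 lines. The GAPDH 3′ minus 5′ difference was 0.607 in HOXD9 clone c and 0.639 to 0.645 in the other HOXD9 lines, a narrow range. The same measure was 0.861 in HOXD13 clone c and 0.533 to 0.568 in its sister lines.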

How the results depend on the processing

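Between the HOXD9 lines, the count of 435 lower and 2 higher genes stayed within 1.5 times under no filter, a minimum of 7, a filter over all 14 arrays, averaged probe sets, centred arrays and, added after seeing the data, with both clones also beyond the vectors (328 lower with a minimum of 7 to 453 with no filter). With a size limit of 0.5 the counts were 1396 lower and 594 higher, and with a limit of 2 they were 5 and 0, as fewer genes pass a larger limit. Leaving out 1 HOXD9 array gave 296 to 879 lower and 1 to 45 higher genes, with the most without clone a (879 and 45), where only clone c remains on its side. Among single named genes, averaging the probe sets moved 8 of them by more than the spread between lines; none of the 19 apart genes of the naming rule changed sign under these settings, which were not run for the other genes named. Of 38 list medians, 16 changed sign under at least 1 setting.

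For HOXD13 against V5 vector the 199 genes called higher and 678 called lower became 3 to 2903 and 0 to 3187 when 1 array was left out; the cause was not tested. The 12 lower genes of HOXD9 called higher became 0 to 36, and the 1 called lower became 0 to 174. With all 14 arrays in the fit 0 were called higher, against 2.89% of all genes tested. With no filter or a minimum of 7 on the V5-tag arrays 0 were called lower, against 3.25% and 7.48% of all genes. These counts of HOXD9 genes under the alternatives were added after seeing the data.

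No paired analysis was possible because the HOX lines carry a letter or the word mix, and the groups compared share no replicate numbers. A value near the floor of about 2 gives no order, and a gene below 5 on the HA-tag arrays was not read.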
